A study of Caenorhabditis elegans with 2 samples.

Results

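The regions described here are those of a pooled ChIP-seq list that hold CACGTG, the palindromic E-box with a central CpG, lying wholly within 50 bp of the summit. The summit is a position given with each region by the authors. Of 30000 regions in the relaxed pooled list, 748 met this rule, at any rank of signal. This relaxed list is labelled as peaks and background. Chromatin immunoprecipitation followed by sequencing was done on whole L1 larvae of Caenorhabditis elegans, the first larval stage, in a mixed-sex population of strain OP355, which carries the integrated transgene wgIs355 in an unc-119(tm4063) III background. The deposited data comprise 1 group with 2 biological replicates of 1 technical replicate each (labelled size range 150-350 bp). The name of the tagged protein is in conflict between label fields: mdl-1 stands in the antibody and source fields, whereas the free text names a GFP fusion of ZK337.2, the gene that the annotation calls klu-1. No other genotype, treatment or stage was compared, and control data were not analysed here. Library depth is unknown, because the lists carry region values but no reads, and no source used here states how the deposited signal was scaled. Signal was an average over all cells of whole larvae, so binding in fewer cells and weaker binding per cell cannot be told apart.

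The E-box is the DNA sequence read by many basic helix-loop-helix (bHLH) proteins, which bind as dimers with each subunit contacting the bases of one half-site. Proteins of the Myc, Max and Mad family prefer the form with a central CpG. MDL-1 is the Mad-like protein of C. elegans and pairs with the Max-like protein MXL-1, and HLH-30, the TFEB-like regulator of autophagy genes, also reads CACGTG. Because the E-box is its own reverse complement, its flanks on both sides can be read outward from it in the same way.

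The E-boxes of the 12 members of highest signal are printed first, because they show what the strongest sites share and where they differ. Each is given 5′ to 3′ on the plus strand with 10 bases on either side, from the WBcel235 (ce11) genome, with the E-box in capitals.
promoter window of mdl-1, chrX:6742216-6742241: atgcgaggcgCACGTGcatacacaca
nearest the 5′ end of aakg-1, chrIII:12583680-12583705: gagagacaggCACGTGtggtccagga
inside abts-4, chrX:6750269-6750294: aacatagaccCACGTGtgggtgcgtc
nearest the 5′ end of R03E9.2, chrX:6737737-6737762: gcatgggatgCACGTGcgccagcaga
nearest the 5′ end of gdh-1, chrIV:11956485-11956510: attagagaccCACGTGggtgagagtc
nearest the 5′ end of T04C4.3, chrIV:2219624-2219649: gcgtctcttgCACGTGgacgttgtct
inside Y43F8B.2, chrV:19529366-19529391: gtgcgcaatgCACGTGaatcgccgcc
nearest the 5′ end of nhr-34, chrIV:9677842-9677867: agataaagtgCACGTGgcaactgcga
promoter window of C36E6.2, chrX:17451573-17451598: tgcactaacaCACGTGccattctcat
promoter window of epg-7, chrX:7334562-7334587: ctctgtacgtCACGTGatttgcagcc
nearest the 5′ end of mdl-1, chrX:6744027-6744052: acatgttgatCACGTGtcgccgatca
promoter window of tos-1, chrV:9344244-9344269: ttatatagggCACGTGacgcactatg

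No base outside the E-box was common to all 12 sequences. The base next to the E-box, read outward on both sides, varied from G with G beside mdl-1 to C with C beside gdh-1. Members near the median signal of all members, 22.01, are shown for comparison in the same format.
inside K01H12.4, chrIV:9713745-9713770: attcgtactcCACGTGactctaacaa
promoter window of F43H9.4, chrV:8026522-8026547: ctttcccgcaCACGTGcgattttgca
promoter window of mob-4, chrIII:8225041-8225066: cagctcaaaaCACGTGttatttttat
inside mrck-1, chrV:6263683-6263708: ttgagacctcCACGTGgaagagcggc
promoter window of cec-3, chrII:7857394-7857419: cgagactcttCACGTGaaccttctgt
promoter window of pde-2, chrIII:8982921-8982946: cctgagcaggCACGTGggcgttgttg
inside F15D4.4, chrII:13241977-13242002: agtctggcacCACGTGtattaaatat
promoter window of acdh-9, chrII:848641-848666: aaaccgagagCACGTGgtagaagaaa

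The same flanks are also shown around 6 of the E-boxes that lie in a flank repeated across the genome, because none of these members reached high signal. These are printed on the strand on which the recurrent flank precedes the E-box.
promoter window of C40A11.8, chrII:2151226-2151251 (minus strand): attctgacacCACGTGattttatgga
nearest the 5′ end of Y66D12A.13, chrIII:11554246-11554271 (plus strand): actctgacacCACGTGccgattcctt
inside siah-1, chrIV:3744661-3744686 (plus strand): tttctgacacCACGTGatttttccga
nearest the 5′ end of mrt-2, chrIII:11744818-11744843 (minus strand): actctgacatCACGTGaaactttcag
inside pll-1, chrIII:367594-367619 (plus strand): agcctgacacCACGTGgccttgcaat
inside H42K12.3, chrX:1314037-1314062 (plus strand): agcctgacacCACGTGaattgacgta

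Members had somewhat higher signal than the other regions, and a small number of them had far higher signal. The median deposited signal of the 748 members was 22.01, with quartiles of 18.5 and 28.95 and a range from 15.99 to 503.3, whereas that of the 29252 other regions was 20.3, with quartiles of 17.9 and 24.1. The authors' thresholded list held 65 members, or 8.69% (exact 95% interval 6.77 to 10.9%), beside 0.863% of all 30000 regions and 0.663% of the regions without the E-box. The 65 members past the threshold had a median signal of 83.2 and a minimum of 50.07, and the other 683 reached at most 49.2. Intervals here are exact Clopper-Pearson intervals at 95% and cover counting error only. Beside a count of 0, the limit given is instead 3 counts of the total.

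The E-box went with higher signal in a fit over all 30000 regions that took account of GC content, chromosome and gene location. Its coefficient was 0.22 on the log2 scale (standard error 0.031, 95% interval 0.16 to 0.28, p = 6.9e-13, n = 30000 regions, least squares with errors clustered by 100 kb), a fold of 1.17. In the same fit to the relaxed list of each replicate alone, the coefficient was 0.20 in replicate 1 and 0.18 in replicate 2. Regions are not replicates of a condition, so this p and those that follow describe these lists and not the variation between cultures of worms.

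E-boxes were concentrated at the summits of the strongest regions. In the regions past the authors' threshold there were 3.47 E-boxes per kb of sequence within 20 bp of the summit, 2.22 per kb from 20 to 40 bp and 0.579 per kb from 80 to 100 bp. From the first region not past the threshold to rank 1000 the density within 20 bp was 1.11 per kb, and in ranks 5001 to 30000 it was 0.214 per kb. The density over the whole genome was 0.177 per kb. The limit of 50 bp in the rule therefore cut through a falling density: of the 168 members in the outermost 10 bp of the window, 10 passed the threshold and the median signal was 21.5, and of the 118 regions with their nearest E-box in the next 10 bp, 5 passed and the median was 20.9.

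**Figure D1:**
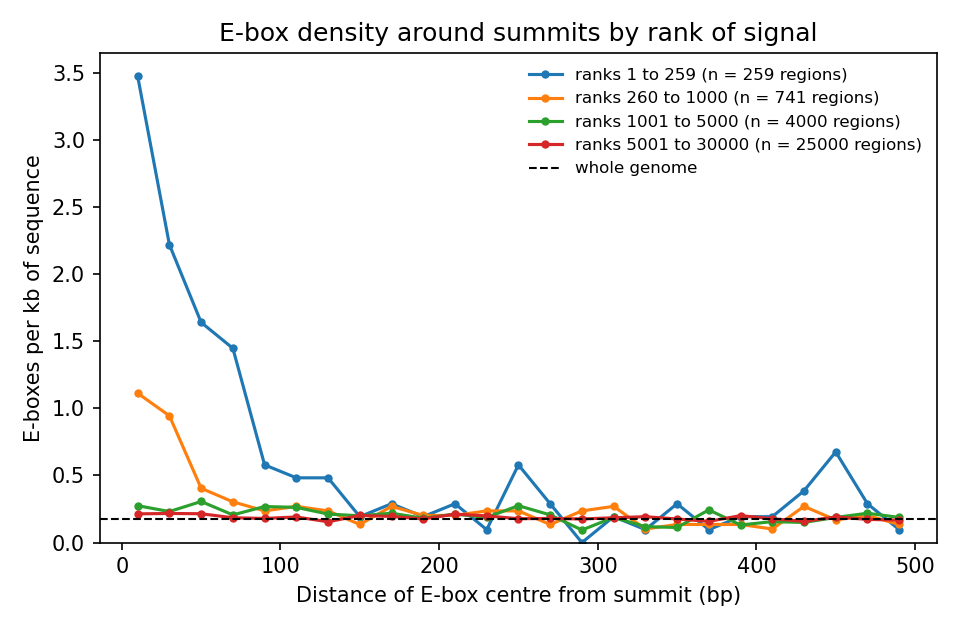
Density of E-boxes (per kb of sequence, vertical axis) against the distance of their centre from the summit (bp, in steps of 20 bp), for 4 groups of pooled relaxed regions by rank of signal, with the genome's density as a dashed line. The regions past the authors' threshold fall from 3.47 per kb beside the summit, and ranks 5001 to 30000 stay near the dashed line at 0.177 per kb.

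The strongest member lay 97 bp upstream of the 5′ end of mdl-1 itself, with a pooled signal of 503.3, and 190.5 in replicate 1 and 294.5 in replicate 2. It held rank 1 in the pooled list and in both replicate lists. The second lay 8284 bp upstream of the 5′ end of aakg-1, a gamma subunit of the AMP-activated protein kinase, with a pooled signal of 340.2, and 150.4 and 192.7 in replicates 1 and 2. An intron of abts-4, which encodes an anion transporter, held a member with a signal of 296.4, and 173.3 and 125.2 in the replicates. These 3 were high in both replicates. The members at mdl-1 and abts-4, and the one nearest R03E9.2 given below, lay within 50 kb of mdl-1. Whether the integrated transgene of the strain added to the signal there was not tested.

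A member nearest the 5′ end of gdh-1, which encodes glutamate dehydrogenase, had a signal of 278.4 and lay within the non-coding gene ZK829.13. One nearest bcat-1, a branched-chain amino acid aminotransferase gene, had 144.3, and one in the promoter window of tatn-1, the tyrosine aminotransferase gene, had 119.3. A promoter window covers 1000 bp before and 500 bp after the 5′ end of each protein-coding gene. These 3, chosen for description from the strongest, had matched regions in both replicates, at 160.9 and 118.9 for gdh-1, 80.5 and 62.8 for bcat-1, and 61.9 and 56.4 for tatn-1.

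Other strong members lay at genes of various roles. The promoter window of epg-7, a scaffold protein of selective autophagy, held a member with a signal of 189.6, and 86.6 and 101.5 in replicates 1 and 2. That of met-1, a histone H3 lysine methyltransferase gene, held one with 134.7, and an intron of daf-14, a Smad gene of the dauer pathway, held one with 110.1. Within non-coding genes inside haf-9, which encodes a half-type ABC transporter of gut granules, and T28B11.1 lay members of 133.3 and 154.6. Nuclear hormone receptor genes were nearest to or held 3 members past the threshold, 1 in the promoter window of nhr-32 (122.2), 1 in an intron of nhr-34 (50.9) and 1 at 2149 bp upstream of nhr-34 (205.5). Genes without a described role here also held strong members, with 280.3 for the region nearest R03E9.2, 274.3 nearest T04C4.3, 220.9 in an intron of Y43F8B.2, 194.5 at C36E6.2 and 166.7 in F09A5.3. The promoter window of tos-1 held 173.0, and an intron of ppfr-1, which encodes a regulatory subunit of a protein phosphatase, held 151.03. Of the remaining members among the 30 strongest, those nearest mdl-1 are given below, and the others had signals from 91.2 nearest C49F8.15 to 120.0 in an intron of W06H8.6, and they included an intron of ZK470.2, the promoter window shared by R107.5 and cls-2, and regions of aakg-1, saeg-1, Y17G7B.17 and Y39G10AR.11.

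Members with high signal were richer in G and C than the rest. GC content was taken from 50 bp before to 50 bp after the summit, leaving out the E-box. The 65 members past the threshold had a median of 48.4% and quartiles of 45.3 and 51.6%, and the other 683 had a median of 40% and quartiles of 34.7 and 45.3%. With members cut into 3 ranges of GC content of like size, 4 of 278 with up to 37.9% GC passed the threshold (1.44%, 0.393 to 3.64%), 11 of 225 in the middle range (4.89%, 2.47 to 8.58%) and 50 of 245 above 44.2% (20.4%, 15.5 to 26%). The 4 in the lowest range were in sea-2 (signal 84.6, GC 34.7%), at C05C10.3 (62.1, 36.8%), near C34B4.2 (61.3, 33.7%) and at adh-1, an alcohol dehydrogenase gene (57.4, 36.8%). Each of these 4 was matched in both replicates.

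Regions without the E-box followed the same order at lower shares, with 0.0454%, 0.461% and 3.03% past the threshold in these ranges of GC content. Their median GC content was 49.5% past the threshold and 35.6% for the rest. Higher GC content past the threshold was thus not particular to members. The slope of log2 signal on GC content was steeper where the E-box was present. In a joint fit over all regions the slope was 0.064 per 10 percentage points without the E-box, and the E-box added 0.26 to it (95% interval 0.17 to 0.34, p = 1.2e-07 after Benjamini-Hochberg adjustment over 5 products, n = 30000 regions). The added slope was 0.31 with the replicate 1 list and 0.21 with the replicate 2 list. The share of low-GC regions differed between the libraries: the lowest GC range held 21299 regions without the E-box in the replicate 1 list and 13263 in the replicate 2 list, and the part of this difference in the result was not tested. Among the strongest regions of each replicate's own list, taken to the same number as passed the authors' threshold, were 32 of 139 members in the highest GC range in replicate 1 and 49 of 323 in replicate 2, beside 4 of 268 and 4 of 283 in the lowest.

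**Figure D2:**
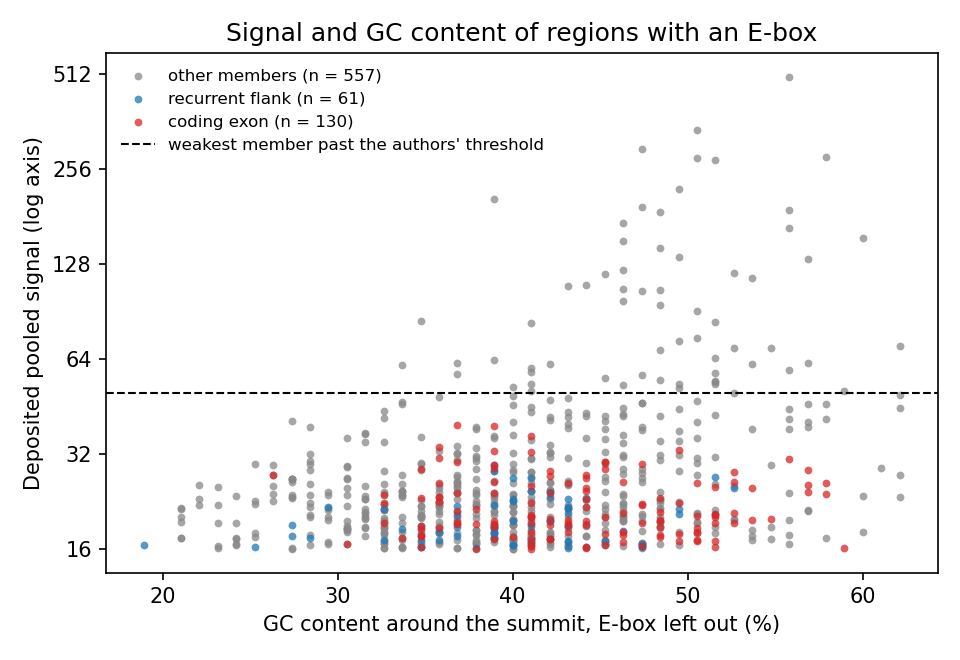
Deposited pooled signal (log axis) against GC content (%) of each of the 748 members, with members in coding exons in red, members in a recurrent flank outside coding exons in blue, and the weakest member past the authors' threshold, at 50.07, as a dashed line. Points above the line lie mostly at 44.2% GC or more, and neither red nor blue points reach it.

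No E-box region in a coding exon passed the threshold. Of the 130 members with their summit in a coding exon and outside promoter windows, 0 passed, which allows a share of up to 2.31%, and their signal ran from 16.01 to 39.6 with a median of 20.2. With promoter windows included, 0 of 177 members in coding exons passed. Among the 618 members elsewhere 65 passed (10.5%, 8.21 to 13.2%). The strongest coding member lay in K07G5.5, with 39.6 pooled and 21.96 and 13.01 in replicates 1 and 2, and the next in prmt-7, a protein arginine methyltransferase gene, with 39.4 pooled and 17.5 and 17.9.

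The members of coding exons were not low in GC content, with a median of 43.7% against 40% outside coding exons. Among members above 44.2% GC, 50 of 190 outside coding exons passed (26.3%, 20.2 to 33.2%) and 0 of 55 inside them. The rank correlation of signal with GC content, as a description, was 0.29 over the 618 members outside coding exons and -0.03 over the 130 inside. Regions without the E-box in coding exons also seldom passed, 5 of 5136 (0.0974%). In the joint fit over all regions a coding exon went with a signal lower by 0.06 on the log2 scale without the E-box, and the product of E-box and coding exon was -0.36 (-0.50 to -0.21, adjusted p = 2.8e-06, n = 30000 regions). In the lists of single replicates this product was -0.39 in replicate 1 and -0.31 in replicate 2. In replicate 1 alone, 1 of 84 coding members was among its strongest regions by that count, and in replicate 2 alone 0 of 228 were.

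**Figure D3:**
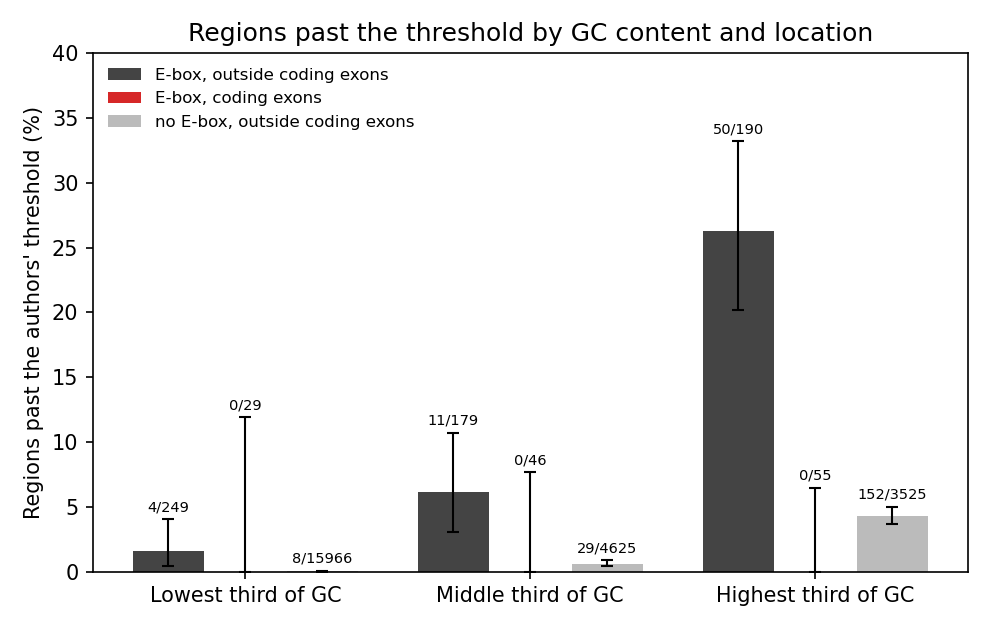
Share of regions past the authors' threshold (%, bars from 0) by range of GC content, for members outside coding exons, members in coding exons and regions without the E-box outside coding exons, with exact 95% intervals and the counts above each bar. Members outside coding exons rise from 4 of 249 to 50 of 190, and the bars of coding exons are at 0.

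Other gene locations differed less. The threshold was passed by 29 of 239 members in promoter windows (12.1%, 8.28 to 17.0%), 15 of 157 intergenic members (9.55%, 5.45 to 15.3%), 15 of 175 in introns (8.57%, 4.88 to 13.7%) and 6 of 30 in non-coding genes (20%, 7.71 to 38.6%). These intervals overlap. Of the few members in untranslated regions, 0 of 9 in 5′ and 0 of 8 in 3′ untranslated regions passed, which allows up to 33.3% and 37.5%. In the fit below, promoter windows had a coefficient of -0.03 (-0.16 to 0.10) and introns of -0.04 (-0.17 to 0.09), and neither passed the test. The promoter window and intron products with the E-box did not pass either.

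A joint fit of log2 signal over the 748 members, with 16 terms for flanking bases, number of E-boxes, distance, GC content, chromosome X and location, accounted for 18.6% of the variance. After adjustment over the 16 terms, 3 passed 0.05. GC content had a coefficient of 0.27 per 10 percentage points (0.19 to 0.35, adjusted p = 2.6e-10, n = 748 regions), and a coding exon -0.38 (-0.52 to -0.25, adjusted p = 3.8e-07). The replicate lists gave 0.29 and 0.27 for GC content, over 556 and 846 members, and -0.38 and -0.32 for coding exons. T at the outermost flank position was the only base to pass, at -0.13 per half-site (-0.22 to -0.04, adjusted p = 0.030, n = 748 regions), and in the list of replicate 1 alone it was -0.04 and did not pass.

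**Figure D4:**
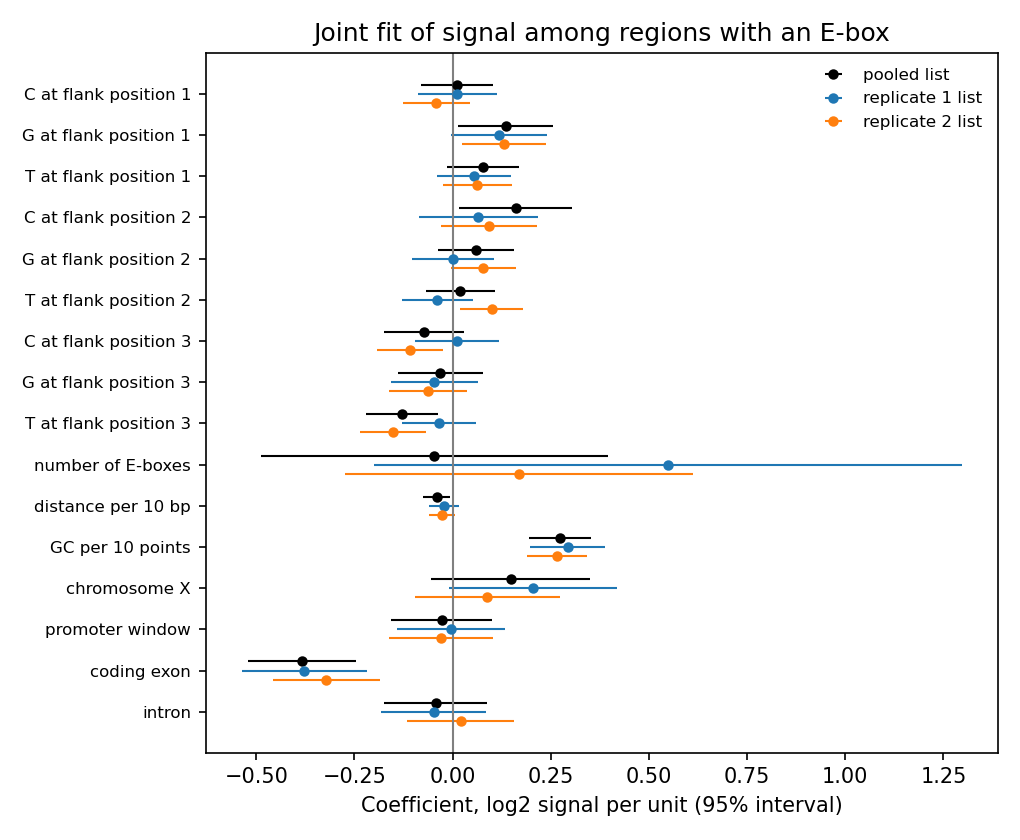
Coefficients of the joint fit of log2 signal among members (horizontal axis, log2 signal per unit of each term, points with 95% intervals) for the pooled list and the lists of replicates 1 and 2. GC content and coding exon lie clear of 0 in all 3 lists, whereas the interval for the number of E-boxes spans 0 in each.

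Flanking bases were counted over both half-sites, with position 1 next to the E-box and A as the reference. G at position 1 had a coefficient of 0.13 per half-site (0.01 to 0.26) and C at position 2 of 0.16 (0.02 to 0.30), each with an adjusted p of 0.077, so neither passed the test in the pooled list. G at position 1 passed in the list of replicate 2 alone, at 0.13, as did T at position 2 (0.10) and C at position 3 (-0.11). In replicate 1 these were 0.12, -0.04 and 0.01, and none of them passed. Of members with G on both sides at position 1, 4 of 28 passed the authors' threshold (14.3%, 4.03 to 32.7%), beside 10 of 63 with G and T, 8 of 54 with A and G, and 2 of 43 with A on both sides (4.65%, 0.568 to 15.8%). The lowest share was 4 of 138 with C and T (2.90%, 0.795 to 7.26%). Members with C on both sides at position 2 had the highest median signal of any flank pair at that position, 35.3, and 6 of 23 passed (26.1%, 10.2 to 48.4%), but they also had a higher median GC content, 45.3%, than the 41.1% of all members. For T on both sides at position 3, 2 of 61 passed and the median signal was 21.3.

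Whether the number of E-boxes went with signal could not be told at this precision. A second E-box within 50 bp was rare, with 17 members holding 2 or 3, of which 4 passed (23.5%, 6.81 to 49.9%), against 61 of 731 with 1 (8.34%, 6.44 to 10.6%). The fitted coefficient per E-box was -0.05 (-0.49 to 0.39), an interval that spans changes in either direction. The 4 that passed were nearest T04C4.3 (274.3), C49F8.15 (91.2), hpd-1 (59.1), a gene of tyrosine breakdown, and lpin-1 (54.6), which encodes lipin. Over the whole deposited region, 9 of 80 members with 2 E-boxes and 2 of 5 with 3 or more passed.

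Distance from the summit was smaller for E-boxes of members past the threshold, but its term missed the test. The median distance from the E-box centre to the summit was 18.5 bp for members past the threshold and 24.5 bp for the rest. Of members within 15.5 bp, 30 of 251 passed (11.95%, 8.21 to 16.6%), and of those beyond 32.5 bp, 15 of 242 (6.20%, 3.51 to 10.02%). In the joint fit signal changed by -0.04 per 10 bp (-0.08 to -0.01), with an adjusted p of 0.075, which missed the threshold.

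Chromosome X held the largest count of members past the threshold, 19 of 133 (14.3%, 8.83 to 21.4%), against 46 of 615 on the autosomes (7.48%, 5.53 to 9.85%). These intervals of members overlap. Of regions without the E-box, 56 of 5903 passed on X (0.949%, 0.717 to 1.23%) and 138 of 23349 on the autosomes (0.591%, 0.497 to 0.698%). The intervals of regions without the E-box do not overlap. Once regions within 50 kb of mdl-1 were left out, 49 of 5856 regions without the E-box passed on X (0.837%). The lower limit of that share, 0.620%, lies inside the autosomal interval, so these intervals then overlap. Among members, the coefficient of chromosome X in the joint fit was 0.15 (-0.06 to 0.35, adjusted p = 0.28, n = 748 regions). Once regions within 50 kb of either mdl-1 or klu-1 were left out it was 0.06, and it was 0.21 and 0.09 in the lists of replicates 1 and 2. In the joint fit over all regions, the product of E-box and chromosome X was 0.17 (-0.04 to 0.39, adjusted p = 0.19, n = 30000 regions) and did not pass. On the autosomes the counts ran from 8 of 127 on chromosome I to 12 of 134 on chromosome V. Part of the count on X came from the neighbourhood of mdl-1, where 6 of 7 members within 50 kb passed (85.7%, 42.1 to 99.6%). Their signals were 503.3, 296.4, 280.3, 187.2, 109.1 and 53.5, and the member that did not pass had 16.7. Of regions without the E-box in this neighbourhood, 7 of 47 passed (14.9%, 6.20 to 28.3%), beside 0.663% of all regions without it, so the high share there is not particular to E-box regions. Without the 7 members, 13 of 126 members on X passed (10.3%, 5.61 to 17.0%), and the 59 of 741 left on all chromosomes made up 7.96%. No member lay within 50 kb of klu-1. The part of the integrated transgene in the high share near mdl-1 was not tested.

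Every CACGTG of the genome was also counted, so that E-boxes near a summit and those away from one could be set side by side. The relaxed lists are labelled as peaks and background, so a relaxed summit nearby does not by itself mean binding. Of 17729 E-boxes on the 6 chromosomes, 766 lay within 50 bp of a relaxed summit (4.32%, 4.03 to 4.63%), beside 2.87% of all start positions in the genome. For summits past the threshold the share was 69, or 0.389% (0.303 to 0.492%), beside 0.0248% of start positions. Most E-boxes of the genome thus lay outside the summit windows of the pooled list. By the base next to the E-box, the share within 50 bp of a relaxed summit was highest for G on both sides (29 of 417, 6.95%, 4.71 to 9.84%) and lowest for A and C (116 of 3370, 3.44%, 2.85 to 4.11%), and these 2 intervals do not overlap. These are the extremes of 10 classes, and the order changed with the setting. In the list of replicate 2 the intervals of both classes overlapped, at 6.95% (4.71 to 9.84%) and 4.78% (4.08 to 5.55%), and the lowest share was that of A on both sides (3.23%). In replicate 1 the shares were 5.995% and 2.58%, and C on both sides was lowest (2.33%). Within 100 bp, G and T was highest (10.99%), above G on both sides (9.59%, 6.94 to 12.8%), whose interval overlapped that of A and C (5.77 to 7.48%).

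No genomic E-box in a coding exon lay near a strong summit, nor did any of the fewer in untranslated regions outside promoter windows. Of 5087 E-boxes in coding exons, 148 lay near a relaxed summit (2.91%, 2.46 to 3.41%) and 0 near a strong one, which allows up to 0.0590%. Intergenic E-boxes lay near a relaxed summit in 5.35% (4.58 to 6.20%) and those in promoter windows in 5.07% (4.46 to 5.73%). Outside coding exons, E-boxes in the highest range of GC content lay near a relaxed summit in 7.90% (6.84 to 9.07%) and near a strong one in 2.09% (1.55 to 2.76%), against 3.82% and 0.0878% in the lowest range. Inside coding exons the shares near a relaxed summit were 2.89%, 2.61% and 3.15% from the lowest to the highest range, with overlapping intervals.

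Support in both replicate lists went with signal. Counting summits at most 200 bp apart as matched, 284 of the 748 members (38.0%, 34.5 to 41.6%) were matched in both lists, beside 24.9% of all 30000 regions. Of these 284, 63 passed the authors' threshold and the median signal was 31.4. A further 161 members were matched only in replicate 1, with 0 past the threshold, 228 only in replicate 2, with 2 past it, and 75 in neither, with 0 past it. The 2 that passed with a match only in replicate 2 lay near mdl-1 (53.5) and acl-4 (50.7). The pooled list contains both replicates and the thresholded list was made from all 3 lists, per the readme texts, so these matches are a description.

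Among matched members, the replicates ranked strong regions alike and weak ones loosely. The rank correlation of signal between replicates was 0.75 over the 63 matched members past the threshold and 0.28 over the 221 not past it. The split itself used both replicates. Pooled signal ran from 50.07 to 503.3 in members past the threshold and from 15.99 to 49.2 in the rest. The difference between the 2 correlations therefore cannot be told apart from the way the split was made. Taking as many of the strongest regions of each replicate as passed the authors' threshold, 46 of the 63 were in the set of replicate 1, 50 in that of replicate 2, and 38 in both sets. Values still differed between replicates at single members, such as ddx-23, an RNA helicase gene, with 59.6 in replicate 1 and 20.9 in replicate 2, and lpin-1, with 17.3 and 38.2. Members of coding exons made up 17.4% of all members, 10.2% of those matched in both lists, 19.3% of those matched only in replicate 1, 24.1% of those only in replicate 2 and 20% of those in neither.

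**Figure D5:**
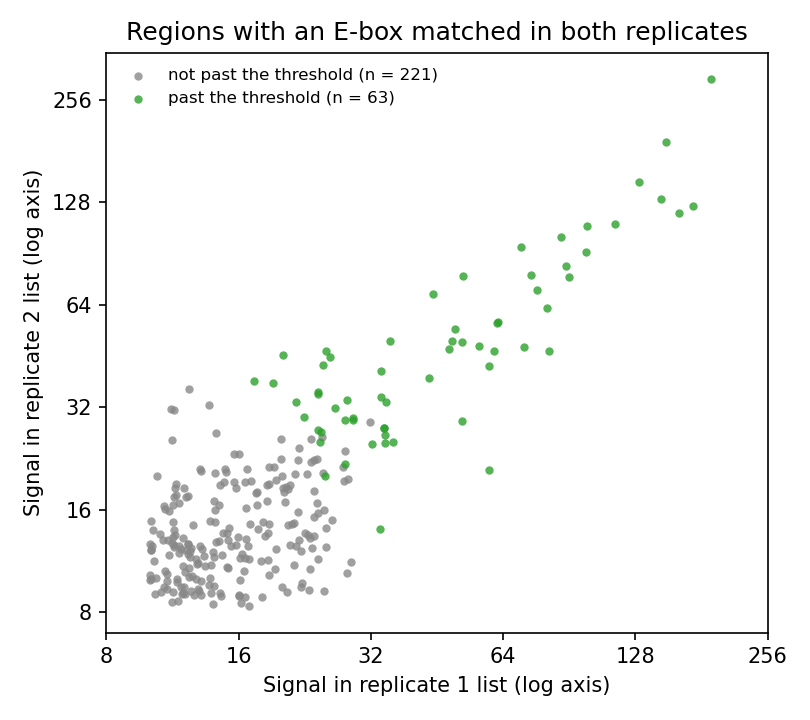
Signal in the relaxed list of replicate 2 against that of replicate 1 (both log axes) for the 284 members matched in both, with the 63 past the authors' threshold in green and the other 221 in grey. Green points follow a diagonal up to 190.5 and 294.5, and grey points form a cloud with little order.

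Few gene groups held E-box regions beyond a handful of genes. Among 19865 protein-coding genes with distinct symbols, 611 (3.08%) had a member in the promoter window or inside the gene, and 55 (0.277%) had one past the threshold. A list drawn up here for the Myc, Max and Mondo network also includes the TFEB-like gene hlh-30. Of the 6 genes listed, 2 had a member, and both passed. These were mdl-1 and hlh-30, whose intron held a signal of 70.6, and 24.8 and 42.6 in replicates 1 and 2. No member lay at mxl-1, mxl-2, mxl-3 or mml-1, nor at klu-1. Few or none were possible there, since the genome has 0 CACGTG within 1 kb of mxl-1 or mxl-2. It has 2 by mxl-3 and 1 each by mml-1 and klu-1. The gene unc-119 had 1 member in a coding exon with 18.8, listed only in replicate 1 at 10.5.

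In the list of autophagy and lysosome genes, 3 of 34 genes had a member and 1 passed. Beside epg-7 these were atg-9, which encodes the membrane protein of autophagosome formation, with 49.2 at rank 266, the strongest member not past the threshold, and atg-3, a conjugating enzyme gene, with 24.2. Of the AMP-activated protein kinase list, 1 of 10 genes had members, aakg-1, with signals of 106.6, 23.5 and 18.5 inside the gene. In the insulin and PI3 kinase list it was 1 of 11, the receptor gene daf-2, with 50.07. The ribosomal protein genes had 2 of 78, rpl-14 (62.2) and rps-29 (27.5).

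In the metabolic lists, counting promoter windows and gene bodies alone, no member passed, so the strong member nearest gdh-1 is not among those counted. For glycolysis and gluconeogenesis 2 of 22 genes had one and 0 passed, with 41.3 at hxk-3, a hexokinase gene, and 24.6 at pck-1, which encodes phosphoenolpyruvate carboxykinase. For glutamate metabolism and the citric acid cycle it was 2 of 29, idhg-1 (22.3) and gln-3 (19.1). The list drawn up here for fat synthesis and desaturation had 1 of 17, acs-2 (19.3), and a place in this list is not evidence of that role. The nuclear hormone receptors had 11 of 274 genes with a member, 2 of them past the threshold, and beyond nhr-32 and nhr-34 the next were nhr-27 (42.4) and nhr-46 (38.5). Of 50 histone genes, his-72, which encodes the variant H3.3, had 1 member with 64.3, and 20.2 and 45.6 in the replicates. Of 21 cell cycle genes, lin-23 alone had a member (19.8), and of 33 proteasome genes, pas-5 (21.4) and pbs-5 (16.6) had one. No gene had a member among 21 vacuolar ATPase, 8 hypoxia response, 7 TOR pathway and 40 translation factor genes. The same held for 77 homeobox and 11 heterochronic genes. Each of these lists is too small to tell its lack of members from the 3.08% of all protein-coding genes.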

How the data were processed

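The measurements were ChIP-seq of 2 libraries of 1 group. Per the readme texts, the authors derived regions from alignments together with a control. They deposited relaxed lists of 30000 regions for each replicate and for pooled data, and a thresholded list, which held the strongest pooled regions. The unit used is the deposited signal of each region, never negative. The sources used here do not give its scaling, nor the aligner, peak caller or threshold, so signals were compared within a list; depth is unknown. A second score column went below 0 and was not used, and only the ce11 lists were used.

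E-boxes were sought in the WBcel235 genome within 50 bp of summits, and genes came from Ensembl release 115. A coding exon, intron or other location applies outside promoter windows, unless stated. Least squares on log2 signal, with no pseudocount and with errors clustered by 100 kb, used Python 3.11.15 with statsmodels 0.14.6, numpy 2.4.6 and pandas 2.3.3; figures used matplotlib 3.10.9 and intervals scipy 1.17.1. The fits were tested on simulated data. Terms were 16 within members and 5 products over all regions. All p-values after Benjamini-Hochberg adjustment are over the terms of 1 fit. The replicate lists were fitted alone as alternatives.

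The genes named were those of the 30 strongest members, up to 4 of each of 19 gene lists, and mdl-1, hlh-30, mml-1, klu-1, unc-119 and the mxl genes. The others were named after their values were seen: C34B4.2, sea-2, C05C10.3, adh-1, K07G5.5, prmt-7, hpd-1, lpin-1, acl-4, ddx-23 and those of the printed sequences. Members and lists were chosen with earlier results of these data known. Recurrent flanks, and terms for CATGTG and GAGAGAG, were added after the data were seen. Alternatives changed the sequence and promoter windows, scale, error estimate, GC window, threshold, replicates and regions near mdl-1 and klu-1.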

Additional observations from a re-analysis of the deposited data

How the results depend on the processing

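Within 12 alternatives, GC content (0.23 to 0.42 per 10 points) and coding exon (-0.54 to -0.28) kept their direction and passed the adjusted threshold, as did the E-box term in all alternatives run for it, including 1 replicate at a time (0.18 to 0.20), and both products. Of the 12, keeping 1 region per E-box and identical sequence removed no member and repeated the main fit. Another changed only the error estimate, which leaves coefficients as they are, and 3 products passed with it, against 2. The other results moved as follows, and the cause was not tested unless the setting makes it. The number of terms past the threshold was 2 to 6 over the lists of single replicates, against 3. T at position 3 no longer passed with normal scores (-0.19), without 50 kb around mdl-1 and klu-1 (-0.12), without recurrent flanks (-0.13) and with a wider GC window (-0.10), and ran from -0.15 to -0.036 in single replicates. G at position 1 was 0.12 to 0.13 in single replicates and passed in replicate 2. Distance passed with E-boxes within 100 bp (-0.018). The number of E-boxes turned positive within 100 bp (0.10), without the 50 kb (0.016), counted over the region (0.046) and with the wider GC window (0.039), and was 0.17 to 0.55 in single replicates. The promoter window turned positive within 100 bp (0.024), with normal scores (0.034) and with a window of 500 bp up to 200 bp down (0.10). By construction, the share of members past the threshold was 5.21% with the strongest 130 regions, 13.6% with the strongest 500 and 6.64% with E-boxes within 100 bp. For the highest GC range these shares were 13.9% and 28.2%, 26.4% with E-boxes within 25 bp, and 15.2 to 23.0% in single replicates; for the lowest range the strongest 130 gave 0.360%. Genomic E-boxes near a summit rose to 7.83% within 100 bp and 12.1% inside the region, and were 3.19 to 4.87% in single replicates. Members matched in both lists were 20.5% at 50 bp and 42.8% by overlap. No paired analysis was possible because the design has a single group. Unknown depth and scaling limit comparisons of signal between lists, and classes of fewer than 30 members give wide intervals.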

Other observations

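Some E-boxes of the genome belong to repeated sequence. A flank of 10 bases that occurred 20 or more times beside E-boxes of the genome was found for 1711 of 17729 E-boxes (9.65%) in 29 flanks, a class set after the data were seen. Of the 748 members, 62 (8.29%) held such an E-box, 36 of them in introns with promoter windows included. Of the 62, 0 passed the authors' threshold, which allows up to 4.84% (3 counts of the total). Their signal ran from 16.08 to 29.6, with a best rank of 2628 and a median of 18.8 against 22.4 in the other 686 members. They were matched in both replicate lists in 22.6%, against 39.4% of the others. The most frequent flank stood beside 360 E-boxes of the genome and 18 members, and 289 and 163 E-boxes carried the next. The E-boxes of recurrent flanks lay near a relaxed summit in 3.68% (2.84 to 4.69%), against 4.39% (4.08 to 4.72%) of the rest, with overlapping intervals.

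Other short sequences were sought on either strand in the 50 bp windows of the members. The repeat GAGAGAG occurred in 33 members, of which 11 passed the threshold, that is in 16.9% of members past it and 3.22% of the rest. Over all regions, in a fit with terms for both, its coefficient was 0.18 on the log2 scale (0.12 to 0.23), and the E-box exceeded it by 0.05 (-0.03 to 0.12, p = 0.24, n = 30000 regions). The E-box of other form CATGTG occurred in 34 members, of which 4 passed, that is in 6.15% of members past the threshold and 4.39% of the rest. The coefficient of CATGTG was 0.03, and CACGTG exceeded it by 0.19 (0.13 to 0.25, p = 3.2e-10, n = 30000 regions). The GATA-like TGATAA was in 72 members, 7 of them past the threshold, that is in 10.8% of members past it and 9.52% of the rest. A further E-box form, CAGCTG, was in 17 members, 3 of them past the threshold (4.62% and 2.05%). The forkhead-like GTAAACA was in 13, with 0 past it, and in 1.90% of members not past it.

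Of the 748 members, 741 had the usual width of 340 bp in the deposited list. The other 7 were narrower, and all passed the threshold with signals from 151.03 to 503.3. Some genes held several members: hda-4, a class II histone deacetylase gene, held 3, from 17.8 to 37.3, ppfr-1 held 3 (151.03, 28.9 and 16.5), and ZK470.2 held 2, both past the threshold, at 94.9 and 68.5 and each matched in both replicates.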
